A study of Mus musculus with 16 samples.

Results

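MicroRNA-132 (miR-132, named mmu-miR-132 on the array) and microRNA-212 (miR-212, mmu-miR-212) are 2 of the 611 mouse microRNAs (miRNAs) on the array, taken by these names in its own annotation, and both were found. Carotid artery RNA of female ApoE-/- mice on a C57BL/6 background and a western-type diet was measured in 16 samples, each on 1 array. Loss of apolipoprotein E raises blood cholesterol and leads to atherosclerosis, and the controls carried the deletion and had the diet as well. There were 3 samples each from day 1, day 7 and day 14 and 4 from day 28 after injury with a wire, and 3 samples of uninjured arteries were the control. The mice were 8 weeks old in the day 1 group and 6 to 8 weeks old in the other groups, per the labels. The series is about neointima formation, the growth of an inner layer of tissue in an injured artery. The labels do not state whether the uninjured arteries came from the injured mice or from others, or whether there was a sham operation. They also do not state whether a sample holds 1 artery or a pool. The series design gives 3 to 4 animals for each time point, and each group had 3 to 4 arrays. The pair was selected on the measured signals of all 16 arrays, so the levels and differences of both miRNAs are given as a description with no test.

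The 2 miRNAs are cut from neighbouring hairpins of one primary transcript. Its transcription is known to be switched on by CREB, a transcription factor that responds to cyclic AMP and calcium signals, above all in neurons. In blood vessels miR-132 is known from human endothelial cells stimulated by growth factors, where it represses a brake on Ras signalling. In rat smooth muscle cells it has been described as restraining proliferation. Human monocytes are also known to raise miR-132 after a bacterial stimulus. CREB itself was not measured here.

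The mature strands are printed because their shared seed, the stretch that pairs with target messengers, is the reason the pair is usually treated as a family. The array's names carry no strand. Current naming gives these products the ending 3p, and the sequences are those of RefSeq on build GRCm38.p6, 5′ to 3′, with bases 2 to 8 (the seed) in capitals.
miR-132: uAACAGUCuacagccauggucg
miR-212: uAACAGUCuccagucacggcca
Both are 22 bases long and are identical at 17 positions. The 9 bases at the 5′ end are the same, and the 5 differences, counted from 1 at the 5′ end with the base of miR-132 named before that of miR-212, are A10C, C14U, U17C, U20C and G22A. Of 1738 mature mouse miRNAs in the RefSeq table, 2 have this seed, and these are the 2 strands printed here.

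The hairpins are printed to show where each mature strand, in capitals, lies in its precursor.
Mir132: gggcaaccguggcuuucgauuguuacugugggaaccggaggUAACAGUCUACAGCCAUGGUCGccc
Mir212: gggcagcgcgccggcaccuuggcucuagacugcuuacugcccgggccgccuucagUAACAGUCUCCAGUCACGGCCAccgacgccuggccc
Mir212 lies at chr11:75173388-75173478 and Mir132 at chr11:75173682-75173747, both on the plus strand, with 203 bases between them. Mature miR-212 covers chr11:75173443-75173464 and mature miR-132 chr11:75173723-75173744. The next annotated genes on the chromosome are Hic1, which encodes a transcriptional repressor, on the side of Mir212 and Ovca2 on the side of Mir132.

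Every array carried 2 probes for each miRNA in 10 spots each. The intensity of a probe, after the scanner software's background subtraction, was averaged over its spots without an outlier mark. It was then divided by the array's own 75th percentile of well-detected probes and is given as log2 of that scaled signal. Negative values therefore mean a signal under that percentile. The brighter probe stands for each miRNA. The arrays differed in brightness, with 75th percentiles of 401 to 624.1 units on uninjured arrays and 483.8 to 1432 after injury. An uninjured array detected 252 to 292 miRNAs, an injured one 287 to 337. The arrays lay on 2 slides, slide 1 holding all of day 1 and day 7 with day 28 replicates 1 and 2, and slide 2 the rest. Known markers of the artery wall, miR-143 and miR-145 of smooth muscle and miR-126-3p of endothelium, were well above background on all 16 arrays. The other endothelial marker on the list, miR-126-5p, was not detected on any uninjured or day 1 array and was not tested. The precision is limited by the 3 to 4 arrays of each group, and the series design gives 3 to 4 animals for each time point.

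miR-132 was higher on each of the 13 arrays of injured arteries than on any uninjured array. With the reported scaling its day 1 level was already near its highest, which other scalings did not all give. Among all tested miRNAs, those higher without overlap were 31.8%, 29.6%, 27.4% and 20.9% at days 1, 7, 14 and 28, and 9.66% at all 4 days. Nothing about the pair is read from these shares, since it was chosen with these arrays known. In uninjured arteries its scaled log2 signal was -4.09, -4.13 and -3.72 on replicates 1 to 3. At day 1 it was -2.75, -2.78 and -2.50, and at day 7 it was -2.56, -2.54 and -2.52. At day 14 it was -2.72, -2.99 and -2.88, and at day 28 it was -3.31, -2.68, -2.88 and -2.98 on replicates 1 to 4. The arrays of no injured group overlapped with the uninjured ones, and the 3 arrays of day 7 lay closest together. The widest group was day 28, where replicate 1 was lowest of the injured arrays and replicate 2 lay within the range of day 1.

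**Figure D1:**
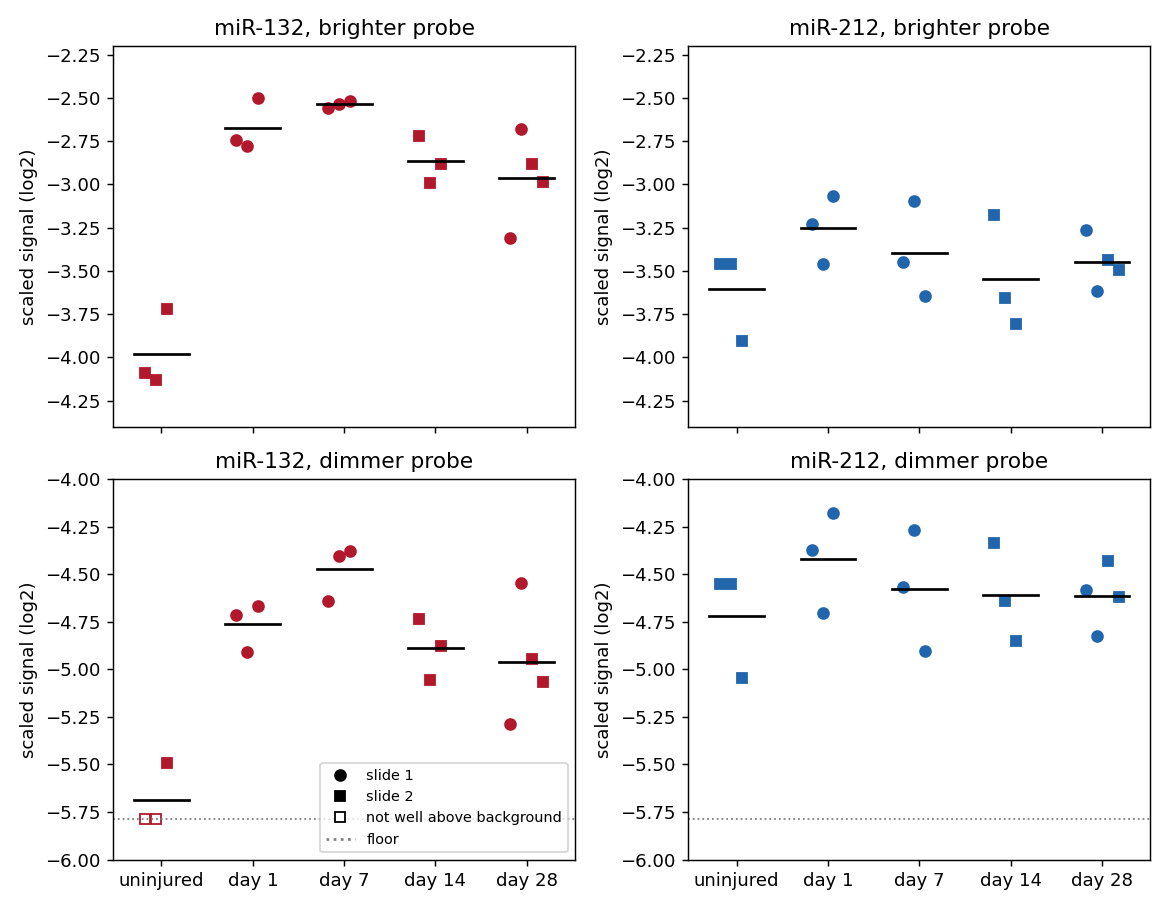
Scaled log2 signal of miR-132 (left) and miR-212 (right) on each array, by group, with the brighter probe above and the dimmer probe below. Each point is 1 array, horizontal lines are group means, and open symbols are arrays where the probe was not well above background. For the brighter probe of miR-132, uninjured arteries lie between -4.13 and -3.72 and all injured ones at -3.31 or higher, while the groups of miR-212 overlap.

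The mean level of miR-132 was -3.98 ± 0.23 (SD, n = 3) in uninjured arteries and -2.68 ± 0.15 (SD, n = 3) at day 1, a difference of 2.47-fold (log2 1.31 ± 0.16 SE, 95% interval 0.95 to 1.66). At day 7 the mean was -2.54 ± 0.02 (SD, n = 3), or 2.72-fold above uninjured (log2 1.44 ± 0.16 SE, interval 1.09 to 1.80). At day 14 it was -2.87 ± 0.14 (SD, n = 3), or 2.17-fold above (log2 1.12 ± 0.16 SE, interval 0.76 to 1.47). Day 28 had the smallest difference, 2.02-fold (log2 1.02 ± 0.15 SE, interval 0.69 to 1.35), at a mean of -2.96 ± 0.26 (SD, n = 4). In whole arteries, a change in the number of cells that make a miRNA and a change in its amount per cell cannot be told apart.

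In ascending order the group means of miR-132 ran from uninjured to day 28, day 14, day 1 and day 7, and in the deposited value table day 1 and day 7 changed places (1.23 and 1.20 above uninjured). Only the step from uninjured to day 28, 1.02 on the log2 scale, was one where the arrays of the neighbouring groups did not overlap. The steps among the injured groups were 0.10, 0.19 and 0.14, against SDs within groups of up to 0.26. Day 14 differed from day 7 by -0.33 ± 0.16 (SE) on the log2 scale (interval -0.68 to 0.03), and the highest day 14 array, at -2.72, lay below the lowest day 7 array, at -2.56. Those groups are on different slides, and with slide as a block the difference was -0.39 ± 0.27 (SE).

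The separation of miR-132 was also there before any scaling, when the injured arrays were brighter in general. Without scaling the median over tested miRNAs was 0.43, 0.86, 0.52 and 0.63 above uninjured at days 1, 7, 14 and 28. The background-subtracted intensity of the brighter miR-132 probe was 23.5, 30.7 and 47.4 units in uninjured arteries and ran from 67.0 to 206.5 units after injury. The lowest intensity that any probe well above background had on an array was 10.2 to 14.4 units, so that miR-132 in uninjured arteries was a dim signal. The dimmer probe was dimmer still. It was well above background on 1 of 3 uninjured arrays and on all 13 others, with 6.02, 7.13 and 13.9 units in uninjured arteries and 16.9 to 48.8 units after injury. On the scaled log2 scale the dimmer probe gave differences from uninjured of 0.92, 1.21, 0.80 and 0.73 at days 1, 7, 14 and 28. These differences are limited by the floor of -5.79, where the uninjured replicates 1 and 2 lay.

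The scaled signal of miR-212 showed no such separation, and its groups overlapped with the uninjured one at every day. Its scaled log2 signal in uninjured arteries was -3.46, -3.46 and -3.90. At day 1 it was -3.23, -3.46 and -3.07, at day 7 it was -3.45, -3.09 and -3.64, and at day 14 it was -3.18, -3.66 and -3.81. The 4 arrays of day 28 gave -3.26, -3.61, -3.43 and -3.50. The lowest of all 16 arrays was the uninjured replicate 3, and the other uninjured arrays lay in the middle of the injured ones. Before scaling, its intensity was 36.5, 48.9 and 41.7 units in uninjured arteries and 50.2 to 111.3 units after injury. Without scaling the groups of miR-212 thus lay apart as well, by a narrow margin, with the median over tested miRNAs higher after injury at every day.

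The mean level of miR-212 was -3.61 ± 0.26 (SD, n = 3) in uninjured arteries and -3.25 ± 0.20 (SD, n = 3) at day 1, which differ by 1.28-fold (log2 0.36 ± 0.20 SE, interval -0.08 to 0.79). At day 7 the difference was 0.21 ± 0.20 (SE, interval -0.22 to 0.64) on the log2 scale, at day 14 it was 0.06 ± 0.20 (SE, interval -0.37 to 0.49), and at day 28 it was 0.16 ± 0.19 (SE, interval -0.25 to 0.56). The intervals of both miRNAs take no account of how the pair was selected and are no test. Those of miR-212 had upper ends between 0.49 and 0.79, so these arrays leave room for a difference of that size. In ascending order the group means ran from uninjured to day 14, day 28, day 7 and day 1. The steps of 0.06, 0.10, 0.06 and 0.14 were all smaller than the SD within the groups, which reached 0.33. The dimmer probe of miR-212 was well above background on all 16 arrays and gave means of -4.72 ± 0.29 (SD) in uninjured arteries and -4.42 ± 0.27 (SD), -4.58 ± 0.32 (SD), -4.61 ± 0.26 (SD) and -4.61 ± 0.16 (SD) at days 1, 7, 14 and 28.

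The repeat spots of a probe give the error within an array. Among spots without an outlier mark, the coefficient of variation within an array was 6.84% (median over arrays, 3.1% to 18.5%) for the brighter miR-132 probe and 6.62% (3.06% to 10.8%) for that of miR-212. Of the 160 spots of each, 13 and 9 carried an outlier mark. The marks matter most on the uninjured replicate 1. There 8 unmarked spots of miR-132 ran from 17.8 to 27.6 units and the 2 marked ones read 57.8 and 342.8 units. With marked spots kept, the differences of miR-132 were 0.83, 0.99, 0.57 and 0.54 on the log2 scale at days 1, 7, 14 and 28, and the arrays of day 1, day 14 and day 28 overlapped with the uninjured ones. With the median over all spots, marked or not, which a single bright spot moves little, they were 1.26, 1.40, 1.07 and 0.94, with no overlap at any day.

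The unequal change of the pair can be read within an array, where the scaling of arrays cancels. The log2 ratio of the miR-132 signal to the miR-212 signal was -0.63, -0.67 and 0.18 in uninjured arteries. It was 0.48, 0.69 and 0.56 at day 1, 0.89, 0.56 and 1.12 at day 7, and 0.46, 0.66 and 0.93 at day 14. At day 28 it was -0.05, 0.93, 0.55 and 0.51. Its size says nothing of which miRNA was more abundant, since the probes differ. All arrays of day 1, day 7 and day 14 lay above the highest uninjured value, and day 28 overlapped through its replicate 1. The ratio leaves out marked spots, among them those of miR-132 on uninjured replicate 1, at 57.8 and 342.8 units. No spot of the brighter miR-212 probe was marked there, so keeping the marked spots would raise the ratio of that array. The ratio was not taken with marked spots kept. The mean ratio was above that of uninjured arteries by 0.95 ± 0.28 (SE) at day 1, 1.23 ± 0.32 (SE) at day 7, 1.06 ± 0.31 (SE) at day 14 and 0.86 ± 0.34 (SE) at day 28 on the log2 scale. On the dimmer probes the log2 ratio was -1.23, -1.23 and -0.44 in uninjured arteries, with miR-132 at the floor on the first 2, and -0.70 to 0.52 after injury. There day 7 and day 14 lay above all uninjured arrays, and day 1 and day 28 overlapped with replicate 3. The uninjured replicate 3, the array with the highest ratio of its group, was also the uninjured array with the most miRNAs detected, 292 against 252 and 258. The part of that array's wider detection in its ratio was not tested.

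**Figure D2:**
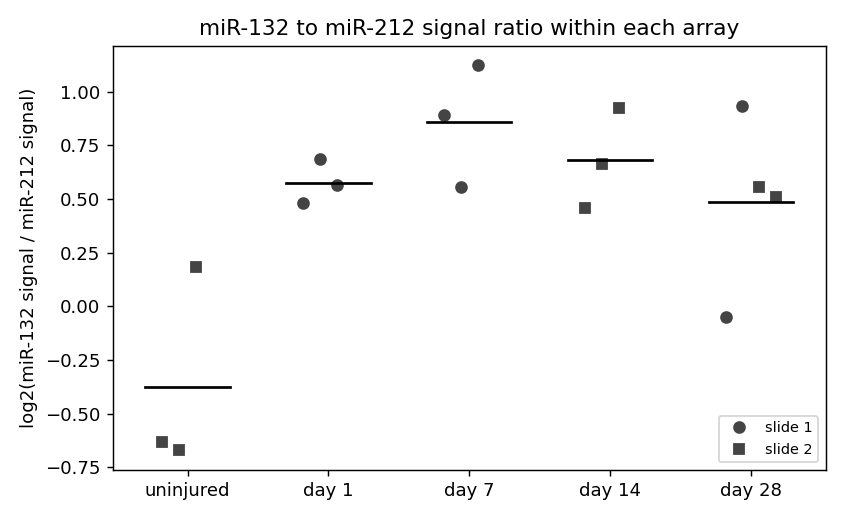
Log2 ratio of miR-132 signal to miR-212 signal (brighter probes) within each of the 16 arrays, by group, with group means as lines. With marked spots left out, the ratio is -0.67 to 0.18 in uninjured arteries and 0.46 or more on every array of day 1, day 7 and day 14.

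Against all tested miRNAs, meaning those detected throughout some group, miR-132 belonged to the higher part of the distribution and miR-212 to its middle. From the largest difference down, miR-132 ranked 38, 28, 42 and 32 of 321 tested miRNAs at days 1, 7, 14 and 28. The difference of miR-212 ranked between 136 and 142 of 321 at the 4 days.

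**Figure D3:**
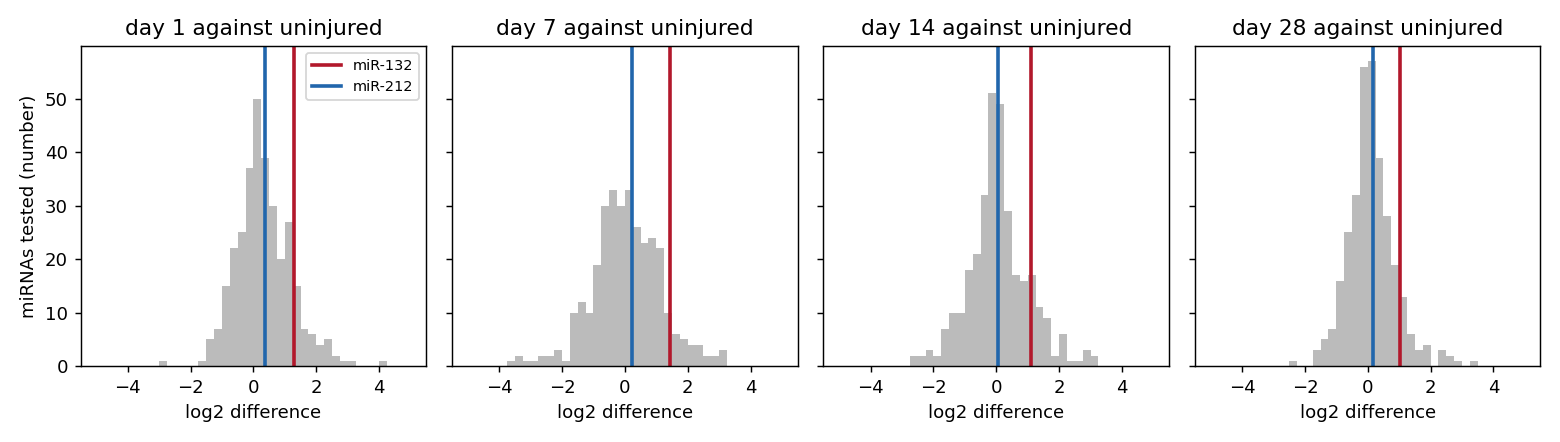
Number of tested miRNAs (321 in all) by log2 difference from uninjured arteries at each day, with miR-132 and miR-212 as vertical lines. miR-132 lies at 1.02 to 1.44 and miR-212 at 0.06 to 0.36.

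The scaling of the arrays sets how large these differences are, and for miR-212 their sign at some days. Unscaled signals shifted the median over tested miRNAs by 0.43, 0.86, 0.52 and 0.63 at days 1, 7, 14 and 28, and miR-132 differed by 1.55, 2.41, 1.78 and 1.65. Relative to that median its differences were 1.12, 1.54, 1.26 and 1.02, and those of miR-212 were 0.17, 0.31, 0.20 and 0.16. At day 1 the difference of miR-132 was 0.67 when arrays were scaled over all mouse probes and 0.52 after quantile normalization, and that of miR-212 turned to -0.28 and -0.32. At day 7 miR-132 differed by 1.29 and 1.43 in these settings, so the closeness of its day 1 and day 7 levels depends on the scaling. miR-132 was above uninjured in all settings run, 13 for days 1 and 7 and 14 for days 14 and 28. These counts include the reported setting and some, such as the higher floor, that could not change its differences. Day 1 and day 7 lie on another slide than the uninjured arteries, and with slide as a block miR-132 differed by 1.37 ± 0.27 (SE) and 1.51 ± 0.27 (SE). Only day 28 has arrays on both slides, so the slide block rests on the arrays of that group. Within slide 2 the difference of miR-132 was 1.12 ± 0.14 (SE) at day 14. That value uses the same arrays as the reported one and could not differ from it. At day 28, from replicates 3 and 4 alone, it was 1.05 ± 0.15 (SE), against 1.02 over both slides.

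**Figure D4:**
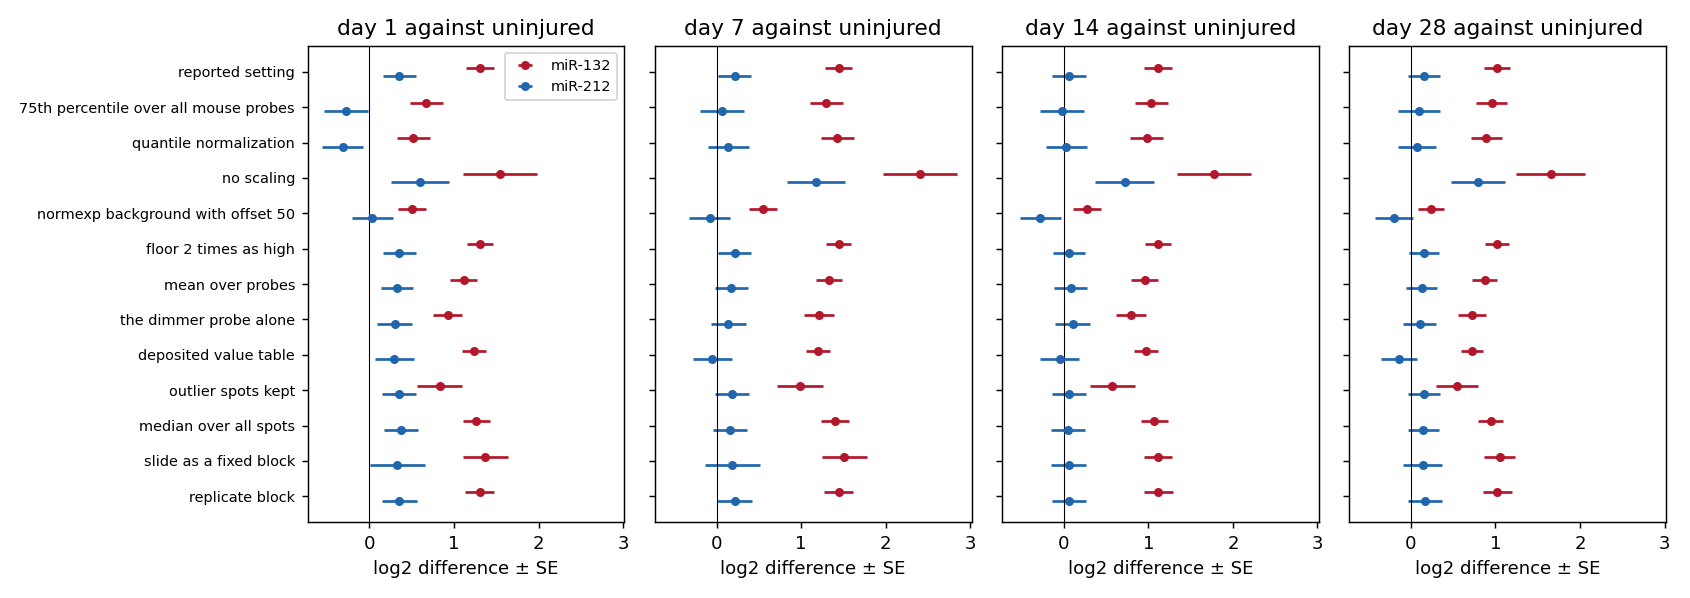
Log2 difference from uninjured arteries with its SE (bars) for miR-132 and miR-212 at each day, under the reported setting and each other way of processing. miR-132 lies above 0 in every row, from 0.23 to 2.41, and miR-212 from -0.32 to 1.18.

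The patterns of the 2 miRNAs across arrays were not alike. Over the 16 arrays their scaled log2 signals had a Pearson r of 0.30 (Spearman rho 0.40), and over deviations from the group means r was -0.21. As a description only, miR-212 was 117th of 320 other miRNAs in likeness to miR-132, and miR-132 was 98th in likeness to miR-212. The arrays share slides, groups and the scaling, so that such values are no test. Most like miR-132 were miR-340-3p (r = 0.92), miR-223 (r = 0.90), miR-142-3p (r = 0.89), miR-19b (r = 0.88) and miR-340-5p (r = 0.88). Over the 13 injured arteries alone these were 0.64, 0.50, 0.57, 0.75 and 0.57, each lower than over all 16 arrays. Over deviations from the group means they were 0.25, -0.02, 0.19, 0.46 and 0.14. miR-223 and miR-142-3p are made in blood cells, and miR-19b belongs to a cluster known from dividing cells. Most like miR-212 were miR-202-3p (r = 0.71), miR-21*, the other strand of miR-21 (r = 0.62), miR-144 (r = 0.58), miR-93 (r = 0.58) and miR-125a-3p (r = 0.57). Within groups, over deviations from the group means, miR-212 and miR-21* had r = 0.79 and miR-212 and miR-202-3p r = 0.72.

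Toll-like receptors (TLR), which sense microbes, are known to induce miR-132 and several other miRNAs, whose levels are given beside it. Of 5 miRNAs on that list 4 were tested (miR-147 was not detected in any group), and limma, at an adjusted p under 0.05, called all 4 higher at each day. Of all tested miRNAs limma called 19.6%, 27.4%, 20.2% and 16.8% higher at days 1, 7, 14 and 28. miR-155, a miRNA of activated immune cells, rose by 0.90 ± 0.31 (SE, limma adjusted p = 0.0384) at day 1 and 2.97 ± 0.31 (SE, limma adjusted p = 5.57e-06) at day 7. miR-146a, an inducible brake on TLR signalling, rose by 0.60 ± 0.17 (SE, limma adjusted p = 0.0193) and 2.45 ± 0.17 (SE, limma adjusted p = 2.08e-07). The differences of miR-132 from the same uninjured arrays were 1.31 and 1.44. miR-146b and miR-21 rose by 2.06 and 2.32 at day 1 and by 3.03 and 2.98 at day 7, and miR-146b was well above background on 2 of 3 uninjured arrays. The day 1 calls of miR-146a and miR-155 were lost with slide as a block (limma adjusted p = 0.246 and 0.213), and also with scaling over all mouse probes, after quantile normalization, without scaling, after normexp and with the mean over probes. With scaling over all mouse probes miR-146a was -0.03 and miR-155 0.27, and after quantile normalization they were -0.13 and 0.18. Without replicate 1 or 3 of day 1, or without uninjured replicate 2, 2 of 4 were called at day 1.

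Leukocyte markers were higher as well. Of 4 such miRNAs, miR-223, miR-142-3p and miR-142-5p were called higher at each of the 4 days and miR-150 at none. With slide as a block 2 of 4 were called at day 1 and at day 7. Their summed scaled signal was 1.53 to 1.91 in uninjured arteries and 25.4 to 28.1 at day 1. It then was 12.6 to 16.9 (day 7), 9.74 to 15.5 (day 14) and 8.07 to 11.1 (day 28). miR-223, known from neutrophils and monocytes, rose by 4.10 ± 0.17 (SE, limma adjusted p = 1.46e-09) at day 1, and miR-150 of lymphocytes was not detected on any uninjured array. With the reported scaling the leukocyte sum was highest at day 1 and lower on every later array. Of its 4 members limma called only miR-223 lower at day 7 than at day 1 (limma adjusted p = 0.00086). For miR-142-3p and miR-142-5p the limma adjusted p was 0.497 and 0.384. With scaling over all mouse probes, miR-142-3p was 2.43 above uninjured at day 1 and 2.60 at day 7. The values of miR-223 there were 3.47 and 3.03. Day 7 differed from day 1 in miR-132 by 0.14 ± 0.16 (SE) on the log2 scale, with overlapping arrays. With scaling over all mouse probes, day 1 and day 7 were 0.67 and 1.29 above uninjured in miR-132. After quantile normalization these values were 0.52 and 1.43. The part of leukocytes in the level of miR-132 was not tested.

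**Figure D5:**
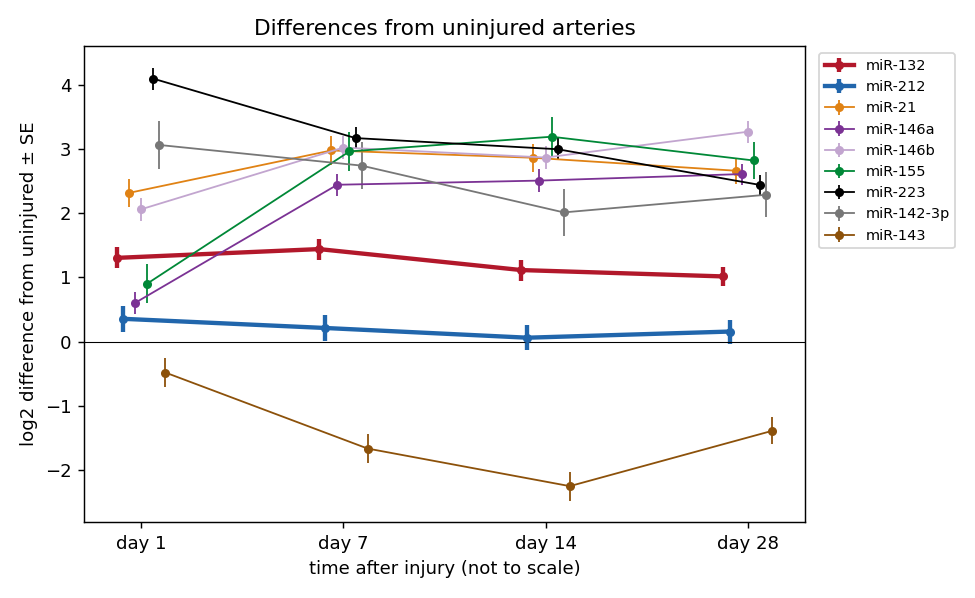
Log2 difference from uninjured arteries with its SE (bars) at each day for miR-132 and miR-212 (thick lines), miRNAs induced through TLR (miR-21, miR-146a, miR-146b, miR-155), leukocyte miRNAs (miR-223, miR-142-3p) and smooth muscle miR-143. miR-132 stays between 1.02 and 1.44, while miR-223 is highest at day 1 (4.10) and miR-155 at day 14 (3.20).

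Since miR-132 and miR-212 are abundant in neurons, miRNAs of neurons and of nerve activity are given as well. Of 11 such miRNAs 9 were tested and 2 (miR-9 and miR-184) were not. At day 7 limma called 7 of the 9 lower and 0 higher, where it called 22.4% of all tested miRNAs lower. At day 14 the counts were 7 and 0 (19.0% of all lower), at day 28 they were 1 and 0 (9.35%), and at day 1 they were 0 and 0 (12.8%). The day 14 count was 1 without day 14 replicate 1 or without uninjured replicate 3, 4 without uninjured replicate 2, 1 within slide 2 and 0 without scaling. The day 28 call was lost without day 28 replicate 1, 3 or 4 and without uninjured replicate 2 or 3. miR-124, a defining miRNA of neurons, fell by 3.37 ± 0.75 (SE, limma adjusted p = 0.00209) on the log2 scale at day 7, where miR-132 was 1.44 and miR-212 0.21 above uninjured. The neuron markers' summed scaled signal was 0.784 to 2.03 in uninjured arteries and 0.106 to 0.147 at day 7. The smooth muscle markers miR-143 and miR-145 fell by 1.67 and 1.92 at day 7 (limma adjusted p = 4.66e-05 and 7.18e-05). Their summed scaled signal was 3.53 to 6.37 in uninjured arteries and 1.54 to 1.80 at day 7, and the part of these shifts in the level of either miRNA was not tested. Without scaling neither was called at day 7. The endothelial miR-126-3p was called higher at day 7, though not with scaling over all mouse probes or in the deposited value table, and with slide as a block it was called higher at day 28 as well. Among markers of other cells, 0 of 2 erythrocyte miRNAs were called at any day, and of 4 miRNAs of striated muscle 0, 1, 2 and 3 were called lower at days 1, 7, 14 and 28, against 0, 0, 2 and 0 with slide as a block.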

How the data were processed

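Intensities were deposited by the authors as scanner output of Agilent miRNA arrays (1 colour, Cy3), made with Agilent Feature Extraction 9.5.1.1 per the file headers, without normalization between arrays. RNA was extracted with a miRNeasy kit per the labels' protocols. The authors' deposited value table held the same software's total gene signal (an intensity on a linear scale, not centred). Its medians were 3.81, 5.36 and 7.93 in uninjured arteries, 13.0, 13.5 and 8.44 at day 1, 16.6, 11.5 and 11.0 at day 7, 7.67, 11.2 and 14.2 at day 14, and 9.00, 16.1, 11.6 and 7.62 at day 28.

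Control spots and spots marked as outliers were left out, and processed signals were averaged per probe. Detection of a probe meant that 50% or more of its unmarked spots were well above background. Each array was divided by its 75th percentile over the 395 mouse probes detected on all 16 arrays, floored at 0.0181 and put on a log2 scale. The brightest probe stood for its miRNA. The 321 of 611 miRNAs detected on every array of a group were fitted in 1 limma model over 5 groups (limma 3.58.1, R 4.3.3), with Benjamini-Hochberg adjustment over all of them. The fit was tested on simulated data. SEs and intervals of the pair are from this model, except SEs of the ratio, which come from the group SDs.

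The pair and all lists were chosen with earlier results of these data known. Besides the pair, the 5 miRNAs most like each by Pearson r and members of the lists are named. Alternatives changed the scaling, background, floor, probe rule, outlier spots, filter, slide, replicates and groups fitted. Between same-numbered replicates, deviations from the group means had r from -0.45 to 0.56 (30 pairs, 8 above 0.1). The reported fit did not treat them as pairs, and such values cannot show whether samples were paired. Sequences are from RefSeq tables on GRCm38.p6.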

Additional observations from a re-analysis of the deposited data

Results flagged for a closer look

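Among the miRNAs given beside the pair, several differed between days by limma's test of the difference itself (adjusted p under 0.05). None of these tests was on miR-132 or miR-212. The share of all tested miRNAs called between days is not given here, so nothing is read from the number of these calls. From day 1 to day 7, miR-146a rose by 1.84 on the log2 scale, miR-146b by 0.96, miR-155 by 2.06, miR-21 by 0.66 and miR-126-3p by 0.65. Over the same days, which lie on one slide, the difference was -0.93 for miR-223, -1.19 for miR-143, -1.41 for miR-145 and -0.998 for miR-1, the last a miRNA of striated muscle. The sizes of these differences depended on the scaling. With scaling over all mouse probes, miR-223 differed from uninjured by 3.47 at day 1 and 3.03 at day 7. In that setting miR-143 differed by -1.12 and -1.82, and miR-21, whose rise was larger there, by 1.69 and 2.83. Differences of the neuronal miRNAs were -2.57 for miR-129-5p, -3.45 for miR-138, -3.17 for miR-153, -3.89 for miR-124 and -4.45 for miR-137. From day 14 to day 28, miR-143 rose by 0.86 and miR-145 by 1.08, while miR-223 fell by 0.56. Day 14 lies on slide 2 and day 28 on both slides, and with slide as a block only miR-145 of these 3 was called (limma adjusted p = 0.0466, against 0.07 for miR-143 and 0.149 for miR-223).

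One array stood apart within its group. At day 28 the scaled log2 signal of miR-124 on replicate 4 was -3.03, and its gap to the nearest of the other 3 arrays was 0.831 of the group's range, just over the critical value for 4 arrays. Chance marks about 1 in 20 groups in this way.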

How the results depend on the processing

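miR-132 was above uninjured under every setting run, and its arrays did not overlap with the uninjured ones under 10, 11, 9 and 9 of 11 settings at days 1, 7, 14 and 28. The 11 include the reported setting and a floor 2 times as high, which lay below every miR-132 value and could not change them. All settings use the same arrays, so these counts are no independent support. The shares of all tested miRNAs without overlap were counted under the reported setting only. The overlaps of miR-132 came with marked spots kept at days 1, 14 and 28 and after normexp at days 14 and 28. Its log2 difference at day 1 was 0.67 with scaling over all mouse probes, 0.52 after quantile normalization and 1.11 with the mean over probes. At days 1, 7, 14 and 28 it was 1.55, 2.41, 1.78 and 1.65 without scaling, 0.50, 0.55, 0.27 and 0.23 after normexp, 0.83, 0.99, 0.57 and 0.54 with marked spots kept, and 0.92, 1.21, 0.80 and 0.73 on the dimmer probe, the last chosen after seeing the data, as was the median over all spots. Normexp adds 50 units to every spot, more than the uninjured signal of miR-132. The deposited value table gave 1.23, 1.20, 0.98 and 0.73, so that day 1 was its highest day. Without scaling day 14 differed from day 7 by -0.63.

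miR-212 turned below uninjured at day 1 with scaling over all mouse probes (-0.28) and quantile normalization (-0.32), at days 7, 14 and 28 after normexp (-0.078, -0.28 and -0.20), and at those days in the deposited value table (-0.052, -0.047 and -0.14). At day 14 it was also below with scaling over all mouse probes (-0.021). It was 0.036 at day 1 after normexp, and 0.60, 1.18, 0.72 and 0.79 at the 4 days without scaling. Day 7 differed from day 1 by 0.34 with scaling over all mouse probes, 0.45 after quantile normalization and 0.58 without scaling, against -0.14 as reported. The cause was not tested.

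Leaving out 1 array gave 1.22 to 1.44, 1.37 to 1.57, 1.04 to 1.25 and 0.92 to 1.15 for miR-132, and 0.21 to 0.46, 0.06 to 0.34, -0.12 to 0.19 and 0.01 to 0.23 for miR-212, at days 1, 7, 14 and 28. With a replicate block, miR-132 differed by 1.31, 1.44, 1.12 and 1.02 and miR-212 by 0.36, 0.21, 0.06 and 0.17.

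limma called 104 miRNAs at day 1 (38 without scaling, 41 after normexp, 30 with slide as a block), 160 at day 7 (105 after normexp, 92 with the slide block), 126 at day 14 (72 without scaling, 82 after normexp) and 84 at day 28 (52 after normexp, 55 with the slide block, 55 within slide 2 and 44 with those groups alone). Leaving out 1 array gave 69 to 117, 138 to 166, 85 to 134 and 63 to 86, with 69 at day 1 without uninjured replicate 2. At day 1 the calls split into 63 higher and 41 lower as reported, 17 and 95 with scaling over all mouse probes, 25 and 72 after quantile normalization, 36 and 2 without scaling, and 16 and 25 after normexp. Without scaling they were 123 and 9, 68 and 4, and 60 and 1 at days 7, 14 and 28, against 88 and 72, 65 and 61, and 54 and 30. After normexp they were 32 and 50 at day 14 and 23 and 29 at day 28, and at day 28 they were 38 and 37 after quantile normalization. In the deposited value table more were lower than higher at days 7, 14 and 28 (61 and 77, 51 and 60, and 25 and 48). Detection limits the dimmer miR-132 probe, which was not well above background on 2 of 3 uninjured arrays.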
